A study of Xenopus laevis x Xenopus muelleri with 6 samples.

Results

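Smooth muscle cells shorten when myosin heads pull on actin filaments. A heavy chain and light chains build the myosin of the thick filament, and actin, tropomyosin and a set of actin-binding proteins build the thin filament. In the vertebrate testis, smooth muscle proteins of this kind are found in the flattened peritubular cells that wrap the seminiferous tubules, whose contraction moves sperm along the tubule, and in the walls of blood vessels. In mammals the genes of this programme share control by serum response factor and its myocardin-related partners.

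Described here are 10 genes of that machinery in frog testis, acta2.L, tpm2.S, cnn1.S, tagln.L, tagln.S, smtn.L, smtn.S, myh11.S, myl9.L and myl9.S, out of 5790 distinct gene symbols that the array table names singly. They were found as all probe sets whose only symbol in the platform annotation was one of these names, and each of the 10 symbols had 1 probe set among the 11485 of the table. The genes were selected on their known role and with measured values in view, namely the log2 differences between sex-reversed and normal testis on these same arrays. That difference is therefore given below as a description, with no test. No threshold on a value was used to pick them. Xenopus laevis carries many genes in an L and an S copy, one from each ancestral genome. Both copies of 3 genes, myl9, smtn and tagln, are among the 10, and the table also holds tpm2.L.

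The animals were hybrids of a Xenopus laevis mother from the Cape of South Africa and a Xenopus muelleri father from Swaziland, raised from eggs to adulthood. Testes of sexually mature sex-reversed animals were measured on 3 arrays and testes of sexually mature normal animals on 3 arrays, with 1 sample of total RNA per array. Replicates are labelled biological. Separate animals are not stated, so the spread between them may in part be technical. How sex was reversed, and the genetic sex of those animals, is not stated in the labels. All animals share the hybrid background, and X. muelleri alleles may bind probes made to X. laevis sequence less well.

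Values are log2 expression values made by RMA, which puts the arrays on a shared scale. They ran over the whole table from 1.93 to 14.4, with array medians between 5.25 and 5.31. The lowest value of each array lay between 1.93 and 2.09. A rank is given as the percentile of a probe set among all 11485 on its array. Probe sets differ in how well they bind, so neither a level nor a rank sets the RNA of one gene against that of another. The brightest germ cell probe sets lay at high ranks: ddx4.L averaged 12.49 ± 0.11 in sex-reversed and 12.57 ± 0.20 in normal testis, and dazl.L averaged 11.93 ± 0.01 in sex-reversed and 11.92 ± 0.20 in normal testis (SD, n = 3 each). Of 21 germ cell probe sets measured, 15 lay above the median of mean level and 3 below its 25th percentile. No gene measured here tells peritubular from vessel smooth muscle, so the 10 are called smooth muscle contractile genes and no cell is named as their source. In whole testis, fewer smooth muscle cells and less RNA per cell cannot be told apart.

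Of the 10 genes, 9 had a higher and 1 had a lower mean in sex-reversed testis, and the median of the log2 differences was 0.53. Over all probe sets the median was 0.01 and 51.3% had a higher mean. Differences of at least 0.5 were seen for 6 of the 10 genes, beside 7.05% of all probe sets. In none of the 10 did every sex-reversed array lie above every normal one, an arrangement found in 5.37% of all probe sets (4.26% for the opposite). In limma over the whole table, 0% of probe sets passed an adjusted p of 0.05. An unadjusted p under 0.05 was found for 508 of 11485, less than that cutoff passes on average where no probe set differs. Since the genes were chosen with this contrast known, nothing is read from their share. The median over the 10 genes was 0.23 without normal replicate 1.

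Smooth muscle alpha actin, acta2.L, forms the core of the thin filament. It lay at percentiles 99.3 to 99.7 of the arrays. It read 12.04, 12.56 and 12.58 on the sex-reversed arrays and 11.61, 11.84 and 12.08 on the normal arrays. Sex-reversed replicates 2 and 3 lay above every normal array, while sex-reversed replicate 1 lay just below normal replicate 3. The means were 12.39 ± 0.31 in sex-reversed and 11.84 ± 0.24 in normal testis (SD, n = 3 each), a log2 difference of 0.55. Actin genes are closely alike in sequence, so part of this signal may come from other actins. The non-muscle actin probe set actg1.L, near it in level, read 12.15 ± 0.09 in sex-reversed and 12.08 ± 0.04 in normal testis (SD, n = 3 each), a difference of 0.07.

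Tropomyosin tpm2.S, which lies along the actin filament and is also used by skeletal muscle, varied most among the 10. Its values were 8.74, 9.06 and 7.49 on the sex-reversed arrays and 8.44, 6.30 and 6.96 on the normal arrays. Both groups held high and low arrays: normal replicate 1 lay above sex-reversed replicate 3. From the lowest to the highest array the value spanned 6.78-fold. The means of 8.43 ± 0.83 in sex-reversed and 7.23 ± 1.10 in normal testis (SD, n = 3 each) differed by 1.20. Leaving out normal replicate 1 gave 1.80, and leaving out normal replicate 2 gave 0.73. The other copy, tpm2.L, read 6.25, 6.58 and 7.13 on the sex-reversed arrays and 6.46, 6.37 and 6.68 on the normal arrays, a difference of 0.15. The groups overlapped for this copy too, and sex-reversed replicate 3, low for tpm2.S in its group, was the highest array for tpm2.L.

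Calponin cnn1.S, an actin-binding protein that slows the myosin motor, lay near or below the middle of the arrays, at percentiles 29.9 to 54.3. It read 4.83, 5.57 and 5.34 on the sex-reversed arrays and 4.18, 3.93 and 4.91 on the normal arrays. The groups overlapped by 1 pair of arrays, sex-reversed replicate 1 and normal replicate 3. Means were 5.25 ± 0.38 in sex-reversed and 4.34 ± 0.51 in normal testis (SD, n = 3 each), a difference of 0.91, and with any 1 array left out it lay between 0.70 and 1.19.

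**Figure D1:**
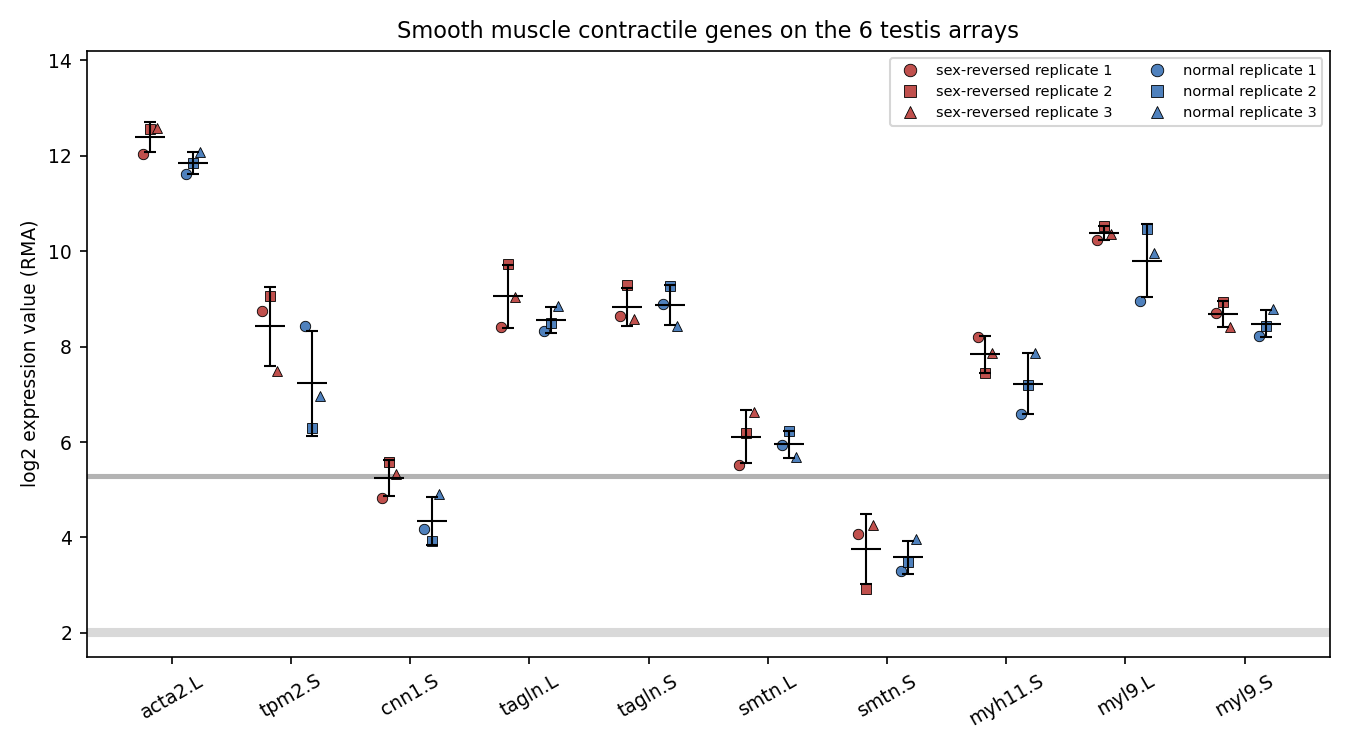
Log2 expression value (vertical axis) of the 10 smooth muscle contractile genes (horizontal axis) on each array, with sex-reversed testis in red left of normal testis in blue, black bars for the mean and SD of 3 arrays, the dark grey band for the array medians (5.25 to 5.31) and the light grey band for the array minima (1.93 to 2.09). The groups overlap for each of the 10 genes, and smtn.S lies nearest to the minima.

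Transgelin, a small actin cross-linker that is an early marker of smooth muscle in mammals, was measured in both copies. The L copy, tagln.L, read 8.41, 9.73 and 9.03 on the sex-reversed arrays and 8.32, 8.50 and 8.85 on the normal arrays. Sex-reversed replicates 2 and 3 lay above the normal arrays and sex-reversed replicate 1 among them. The difference of 0.50 was 0.16 without sex-reversed replicate 2. The S copy, tagln.S, read 8.64, 9.28 and 8.58 on the sex-reversed arrays and 8.90, 9.28 and 8.44 on the normal arrays. Its groups lay over each other, with a difference of -0.04, the lower mean among the 10.

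Smoothelin binds actin in contractile smooth muscle, and both copies were measured. The L copy smtn.L read 5.53, 6.19 and 6.62 on the sex-reversed arrays and 5.94, 6.23 and 5.68 on the normal arrays. The S copy smtn.S read 4.08, 2.92 and 4.27 on the sex-reversed arrays and 3.30, 3.49 and 3.96 on the normal arrays. For each copy the sex-reversed arrays reached both above and below all normal ones. Differences of the means were 0.16 for smtn.L and 0.17 for smtn.S, and both changed sign without sex-reversed replicate 3, to -0.09 for each. With smtn.S at percentiles 8.87 to 34.6 and no signal-to-background measure in the table, the size of its difference is uncertain.

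The thick filament was represented by the smooth muscle myosin heavy chain, myh11.S, and by myl9, the regulatory light chain whose phosphorylation starts contraction. The heavy chain read 8.21, 7.44 and 7.86 on the sex-reversed arrays and 6.60, 7.19 and 7.87 on the normal arrays. Normal replicate 3 lay level with sex-reversed replicate 3 and above sex-reversed replicate 2, while normal replicates 1 and 2 lay below all sex-reversed arrays. Its means were 7.84 ± 0.39 in sex-reversed and 7.22 ± 0.64 in normal testis (SD, n = 3 each), 0.62 apart, and 0.31 apart without normal replicate 1.

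The light chain copy myl9.L read 10.24, 10.53 and 10.36 on the sex-reversed arrays and 8.97, 10.47 and 9.96 on the normal arrays. The sex-reversed arrays lay close together (SD 0.14), while the normal ones spread over a wider range (SD 0.77), with normal replicate 1 far below the rest and normal replicate 2 above sex-reversed replicates 1 and 3. The difference of 0.58 was 0.16 once normal replicate 1 was left out, and 0.91 once normal replicate 2 was. The copy myl9.S read 8.70, 8.94 and 8.41 on the sex-reversed arrays and 8.22, 8.43 and 8.78 on the normal arrays, mixed between the groups. Its difference was 0.21, and 0.08 without normal replicate 1 or without sex-reversed replicate 2.

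Array by array, the 10 genes did not move as a block. Each gene was set against its own mean over the 6 arrays. On sex-reversed replicates 1, 2 and 3, 6, 8 and 7 of the 10 genes lay above their mean, and on normal replicates 1, 2 and 3, 2, 3 and 5 did. The mean deviation was 0.11, 0.39 and 0.22 on the sex-reversed arrays and -0.38, -0.26 and -0.08 on the normal arrays. Sex-reversed replicate 2 held the highest value of 6 genes and also the lowest value of smtn.S. Normal replicate 1 held the lowest value of 5 genes, yet tpm2.S lay 0.61 above its own mean there. These counts and mean deviations hold the difference between the groups that was in view when the 10 were chosen. The same counts over all probe sets were not taken. The median SD over the 6 arrays was 0.52 for the 10 genes and 0.35 for all probe sets. Within groups, the median pooled SD was 0.48 for the 10 genes and 0.34 for all probe sets.

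**Figure D2:**
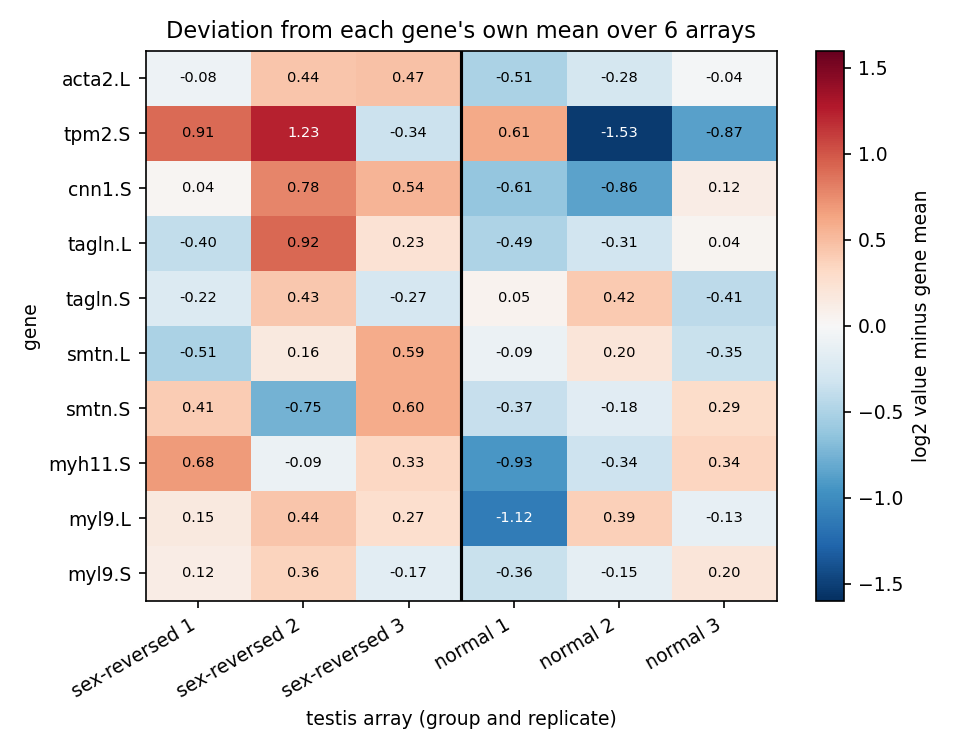
Log2 value minus the gene's own mean over 6 arrays (colour and printed value) for the 10 genes (vertical axis) on each array (horizontal axis), with the sex-reversed arrays left of the black line and the normal ones right of it. Sex-reversed replicate 2 is above the mean for 8 genes and normal replicate 1 for 2 genes, and tpm2.S spans the widest range.

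Covariation between the 10 genes was read from deviations from the group means, which leaves the difference between the groups out. It is a description over 6 arrays that share the RNA, the labelling and the normalization of each sample. Over the 45 pairs of genes the median Pearson r was 0.06, with 28 pairs above 0, beside a median of 0.00 over all pairs of probe sets. The highest r were those within a trio of thin-filament genes: 0.83 for acta2.L and tagln.L, 0.80 for acta2.L and cnn1.S, and 0.79 for cnn1.S and tagln.L. With any 1 array left out the lowest r of these pairs was 0.56, 0.69 and 0.67 in the same order, each time without sex-reversed replicate 1. Spearman's rho was 0.83 for acta2.L and tagln.L and 0.89 for each of the other pairs of the trio. Not all thin-filament genes went with it. For tagln.S, r was -0.04 with acta2.L, -0.29 with cnn1.S and 0.34 with tagln.L. For tpm2.S, r with the same genes was -0.50, 0.01 and -0.04. How often unrelated probe sets reach r as high as the trio's over so few arrays was not tested.

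Other pairs gave values of both signs, several of which rested on single arrays. Of the 45 pairs, 7 had r above 0.5, those of the trio included. The share of all pairs of probe sets above 0.5 was not counted, so nothing is read from this number. The light chain copy myl9.S had r = 0.57 with tagln.L and with cnn1.S, at lowest 0.23 and 0.10 with 1 array left out. Between acta2.L and smtn.L r was 0.53, and -0.35 without sex-reversed replicate 1. For tpm2.S, r was -0.75 with myl9.L and -0.50 with acta2.L, and without normal replicate 1 these were -0.19 and -0.18. The S copies smtn.S and tagln.S had r = -0.85, between -0.99 and -0.73 with any 1 array left out. The myosin heavy chain myh11.S had r = 0.74 with smtn.S, between 0.70 and 0.87 with any 1 array left out. Its r with acta2.L was 0.19, but leaving out sex-reversed replicate 1 gave 0.96 and leaving out normal replicate 3 gave -0.38, so no relation between these genes can be read. The trio and these pairs were picked out after their values were seen and were not tested.

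**Figure D3:**
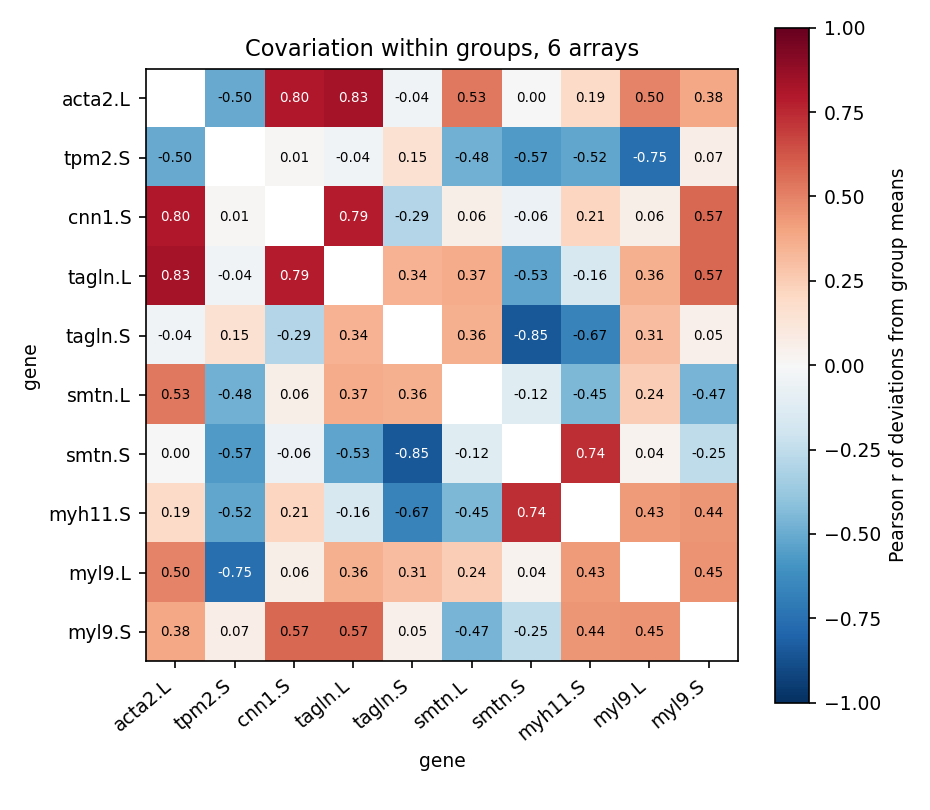
Pearson r (colour and printed value) between the deviations of each pair of the 10 genes from their group means over 6 arrays. The block of acta2.L, cnn1.S and tagln.L is positive (0.79 to 0.83), while tpm2.S is at -0.50 with acta2.L and -0.75 with myl9.L, values that shrink to -0.18 and -0.19 without normal replicate 1.

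Between the L and S copies of a gene, r was no larger than reordering the arrays within groups often gives. This was tested for 3 genes by an exact two-sided permutation test over 36 reorderings, where 0.0278 is the smallest p possible. For myl9, r was 0.45 (rho 0.43, exact p = 0.556, adjusted p = 0.833 over the 3 pairs). For tagln, r was 0.34 (rho 0.09, exact p = 0.556, adjusted p = 0.833). For smtn, r was -0.12 (rho 0.09, exact p = 0.889, adjusted p = 0.889). The pair of arrays whose L copy lay farthest from the median, in deviations from the group means, was then left out. For the same deviations on the other 4 arrays, r was 0.69 for myl9, -0.63 for tagln and -0.51 for smtn. For tpm2, whose L copy is not among the 10, r was -0.46 and was not tested. With 6 arrays, a missed threshold does not show that copies vary independently, and whether probe sets cross-hybridise between copies was not tested.

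**Figure D4:**
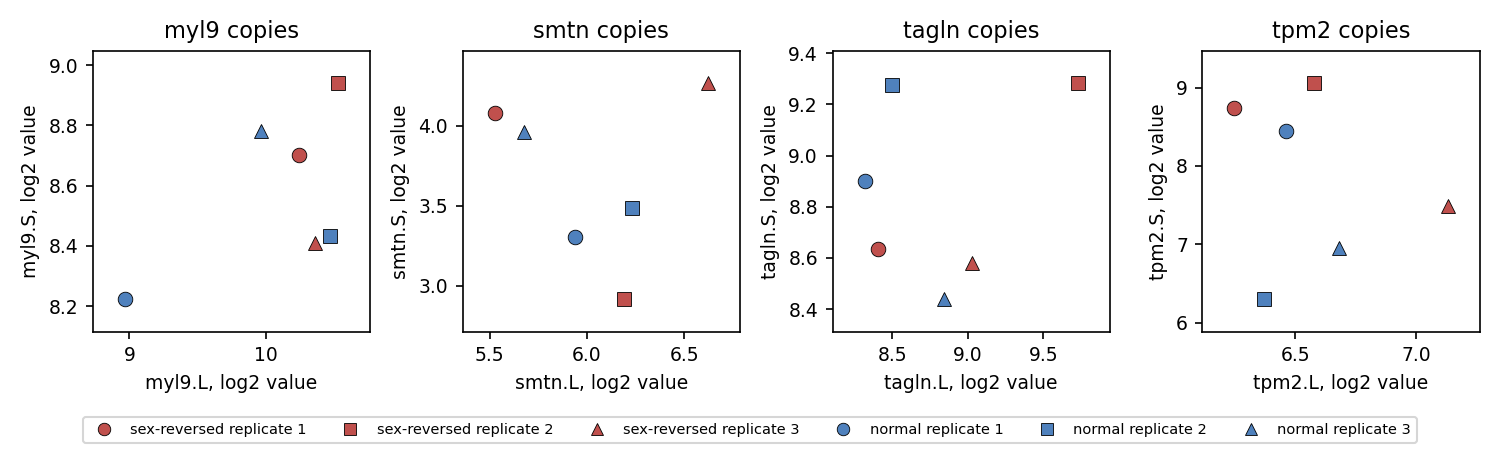
Log2 value of the S copy (vertical axis) against that of the L copy (horizontal axis) of myl9, smtn, tagln and tpm2, 1 point per array, sex-reversed testis in red and normal testis in blue. In the tagln panel sex-reversed replicate 2 and normal replicate 2 share an S value of 9.28 with L values of 9.73 and 8.50.

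Genes around the contractile core were read from lists of related roles, each beside the 51.3% of all probe sets that had a higher mean. Of 39 symbols for other structural genes of smooth muscle, 17 were measured by 28 probe sets, 21 with a higher and 7 with a lower mean in sex-reversed testis (median 0.15), and 0 passed in limma. The essential myosin light chain myl6.S, partner of myl9 on the myosin head, read 11.05, 11.50 and 11.22 on the sex-reversed arrays and 10.64, 10.65 and 11.09 on the normal arrays, a difference of 0.46. Sex-reversed replicate 1 lay just below normal replicate 3. Intermediate filament vim.S differed by 0.12. The integrin gene itgb1.S differed by 1.22, with normal replicate 3 at 4.94 and every other array at 8.55 or above. The integrin-linked kinase gene ilk.S differed by 1.69, with the same array at 2.38 and every other one at 7.86 or above. The small heat shock gene hspb1.S differed by -1.10, with arrays of both groups mixed. Of the L copies, hspb1.L differed by 0.16 on a dim probe set, and itgb1.L by -0.18 on its brighter probe set and 0.14 on the other.

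Probe sets of genes that switch contraction on and off were 13 higher and 16 lower, 29 in all for 11 symbols (median -0.09), of which 0 passed in limma. Many of the 29 belonged to camk2g.S alone, most of these with a lower mean, so the counts and the median lean on that gene. The kinase gene rock2.L, which keeps the light chain phosphorylated, differed by 0.04. The small GTPase rhoa.L, which activates that kinase, differed by -0.79, with sex-reversed replicate 3 at 6.52 and every other array at 8.88 or above. A probe set of the phosphatase catalytic subunit ppp1ca.L differed by 1.45 and another by 0.10, with normal replicate 1 at 3.78 on the first. The angiotensin receptor agtr1.L read 3.43, 3.55 and 3.83 on the sex-reversed arrays and 4.68, 4.77 and 4.58 on the normal arrays, a difference of -1.07 with the groups apart. It did not pass, and all its values lay below the array medians. The S copy, agtr1.S, also dim, differed the other way, by 0.44.

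Regulators of smooth muscle genes were 18 higher and 8 lower over 26 probe sets of 18 symbols (median 0.15), and 0 passed in limma. The serum response factor partner mrtfa.S differed by -1.23 on a dim probe set (3.43 ± 0.76 in sex-reversed and 4.66 ± 0.28 in normal testis, SD, n = 3 each). A brighter probe set of the same gene differed by -0.22. The transcription factors mef2a.L (-0.03), tead1.S (-0.14) and hand2.S (0.55) were the brightest of the list. A dim probe set of klf2.S differed by 0.58 and a brighter one by 0.05. In the list of Hedgehog and PDGF signals between Sertoli and peritubular cells, which also held bmp2.S, bmp4.S and gdnf.L, 8 probe sets had a higher and 7 a lower mean (median 0.02). The receptor pdgfra.L read 5.63, 5.52 and 4.41 on the sex-reversed arrays and 4.18, 4.23 and 4.30 on the normal arrays, apart by 0.95 in the mean, while another probe set of it differed by -0.06. The Hedgehog-binding protein hhip.L differed by 0.21 and 0.02 on its 2 brightest probe sets and the receptor ptch1.S by -0.31. On dim probe sets the ligand dhh.S differed by -0.49 and the transcription factor gli2.S by -0.43. For dhh.S, normal replicate 1 read 4.37 and every other array 3.20 or below. The L copies, also dim, differed the other way, dhh.L by 0.25 and gli2.L by 0.28.

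Non-muscle relatives of the same proteins were 11 higher and 6 lower over 17 probe sets (median 0.07), and 0 passed in limma. Cofilin cfl1.S, which severs actin filaments, differed by 0.07 and profilin pfn2.L by 0.01. The actin-sequestering peptide tmsb4x.L differed by -0.49, tropomyosin tpm3.L by 0.65, and a probe set of the non-muscle light chain myl12b.L by 1.78, with normal replicate 2 at 2.71 and every other array at 6.28 or above.

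Markers of other cells that hold related genes were read beside the 10, as the sum of the values after undoing the log, with no test. The sum over the 10 genes, to which acta2.L gave most, was 7388 to 10305 on the sex-reversed and 5251 to 7040 on the normal arrays. The difference between the groups was in view when the 10 were chosen, so nothing is read from these sums lying apart. Taken singly, each of the 10 genes overlapped between the groups, and the sum without acta2.L was not taken. The 36 skeletal and cardiac muscle probe sets summed to 1328 to 1560 on the sex-reversed and 1099 to 1271 on the normal arrays, with 21 of 36 means higher and 21 of 36 below the 25th percentile of mean level. A probe set of ckm.L, the muscle creatine kinase, was the brightest and gave the largest part of each sum. It read 8.90, 9.26 and 8.99 on the sex-reversed arrays and 8.94, 8.73 and 8.37 on the normal arrays. Among the 36, ckm.L differed by 0.37 and 0.50 on its brightest probe sets and troponin tnnc1.L by 0.88. The fast light chain mylpf.L differed by 0.82 and the inhibitory troponin tnni2.S by -0.60. Their part in the values of tpm2.S and the other 9 genes was not tested.

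Endothelial probe sets, 6 of 10 with a higher mean, summed to 283 to 328 on the sex-reversed and 202 to 312 on the normal arrays, and 4 of them lay below the 25th percentile of mean level. The vessel marker pecam1.L differed by -0.02, cldn5.S by 0.11, cldn5.L by 0.75, sox18.S by 0.73 and the receptor tek.S by 0.92. Groups overlapped for cldn5.L, sox18.S and tek.S. The other lower means were those of aplnr.S (-0.58), sox7.L (-0.09) and flt1.L (-0.08). Pericyte genes, which mark the contractile cells of small vessels, were measured by 3 probe sets with a sum of 123 to 151 on the sex-reversed and 109 to 150 on the normal arrays, among them rgs5.S (-0.12), rgs4.S (0.05) and foxc2.S (0.04). Matrix genes, 16 of 25 with a higher mean (median 0.20), summed to 4575 to 5487 on the sex-reversed and 3629 to 4629 on the normal arrays. Collagen col6a1.L differed by 1.10 with its groups apart, fibronectin fn1.S by 0.51 and 0.32 on its brightest probe sets, sparc.S by 0.50 and fbln1.L by -0.70. Other probe sets of fn1.S differed by 0.21 and -0.28. This gene gave more to each matrix sum than any other.

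Sertoli cell probe sets summed to 530 to 564 on the sex-reversed and 631 to 731 on the normal arrays, with 3 higher and 6 lower of 9. A single probe set of the gap junction gene gja1.L made up 59.4% to 74.4% of this sum on each array. It read 8.38, 8.67 and 8.56 on the sex-reversed arrays and 8.87, 8.95 and 8.87 on the normal arrays. Without it the sums overlapped, at 152 to 227 on the sex-reversed and 162 to 235 on the normal arrays. The higher means were those of dhh.L (0.25), gata4.S (0.19) and a probe set of fshr.L (0.10). Among the lower means, the other probe set of fshr.L differed by -0.65 with its groups apart, dhh.S by -0.49 and sox9.S by -0.24. Germ cell probe sets, 8 of 21 with a higher mean, summed to 14553 to 15822 on the sex-reversed and 15217 to 17056 on the normal arrays. Most of each germ cell sum came from ddx4.L and dazl.L. Steroidogenic (1 of 7 higher, median -0.16), erythroid (7 of 19, median -0.11) and kidney probe sets (4 of 7, median 0.02) overlapped between the groups in their sums. The steroidogenic sum ran from 940 to 3388 on the sex-reversed and from 2069 to 3710 on the normal arrays. Its cyp17a1.L probe sets read 5.23 and 5.17 on sex-reversed replicate 3 and 8.14 or above on every other array. None of these markers passed in limma, and their part in the values of the 10 genes was not tested.

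**Figure D5:**
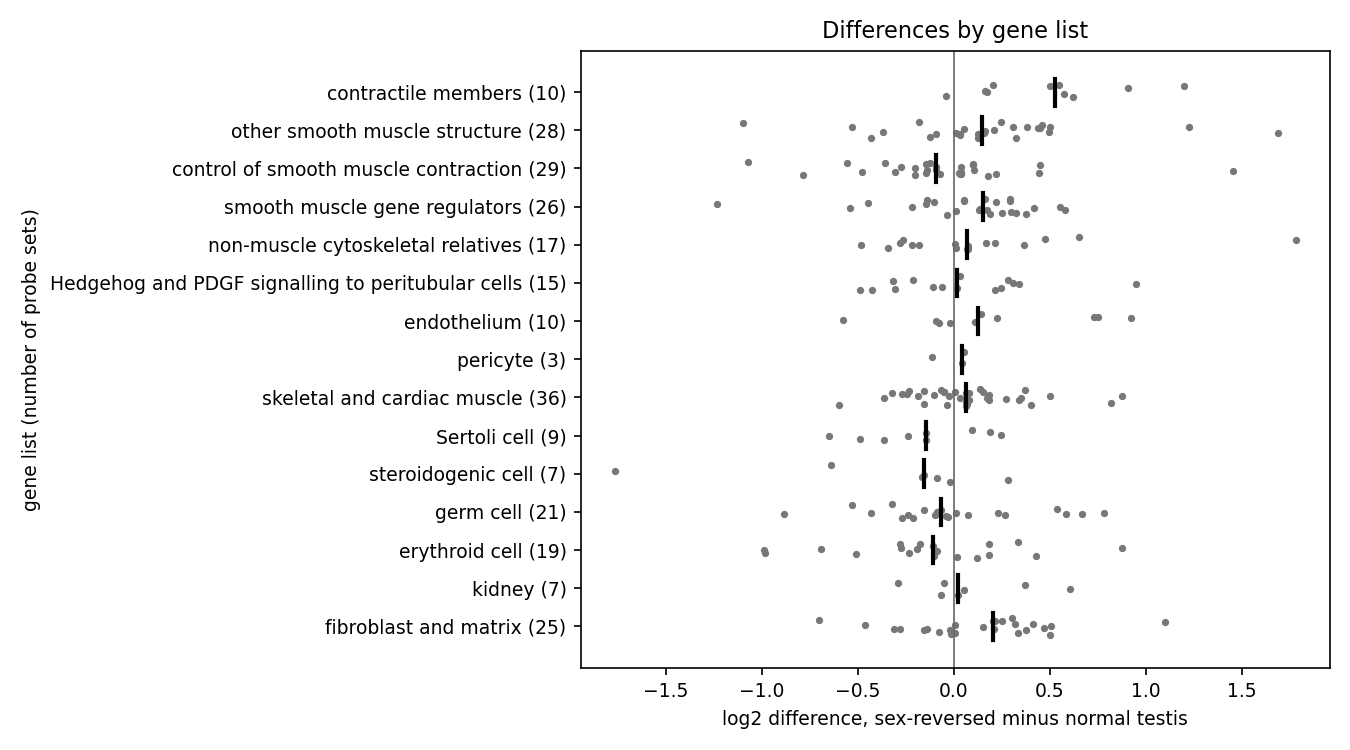
Log2 difference of the means, sex-reversed minus normal testis (horizontal axis), of each probe set (grey points, spread vertically for sight) in each gene list (vertical axis, number of probe sets in brackets), with a black bar at the list's median. The 10 contractile genes have a median of 0.53 and the other lists medians between -0.16 and 0.20. The 10 were chosen with this difference in view, so their place beside the other lists is a description only.

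The genes whose pattern over the 6 arrays was most like the mean of the 10 were found among named probe sets with an SD of at least 0.25. That pattern holds the difference between the groups, which was in view when the 10 were chosen. Likeness to it is therefore in part likeness to that difference, and all 6 nearest genes had a higher sex-reversed mean, by 0.45 to 1.12. By Pearson r they were nipal2.L (0.99), alas1.L (0.98), trip12.S (0.97), a probe set of camk2g.S (0.97), spdyc.S (0.96) and myl6.S (0.96). Of these, alas1.L, which makes the first enzyme of heme synthesis, read 6.65, 7.28 and 6.78 on the sex-reversed arrays and 5.24, 5.67 and 6.43 on the normal arrays. Other probe sets of camk2g.S had differences of both signs, and myl6.S is a myosin light chain. By deviations from the group means the nearest were rpf1.L (0.99), ercc5.L (0.99), rps15.S (0.99), atp5pf.L (0.99), ngfr.L (0.98) and dnajb11.S (0.98), with none in common with the first set. Of 4871 probe sets compared, 25 had r of at least 0.9 over the 6 arrays and 105 by deviations, and at most 2 of the 6 names stayed among the nearest 6 when 1 array was left out. How many unrelated probe sets reach such r over so few arrays was not tested. The mean of the 10 also stands for them unevenly. By deviations, r of a gene with the mean of the others ran from -0.67 for tpm2.S to 0.80 for acta2.L.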

How the data were processed

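Total RNA of testis was extracted, labelled with biotin and hybridised to Affymetrix arrays, per the labels' protocols. The submitters' processing notes name RMA as the tool behind the deposited log2 values. Its version, options, chip definition and the choice of rows are not given, and the log2 scale was read from the range of the values. RMA repeats values: each array held 6887 to 7214 distinct values, and 37 of the 60 values of the 10 genes were shared with another probe set on their array. Of 11485 probe sets, 6798 had 1 symbol in the platform annotation, 110 had several and 4577 had none.

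Arrays were grouped by their titles. The whole table was fitted with limma 3.58.1 (lmFit and eBayes) in R 4.3.3 with 2 groups, p-values being two-sided and adjusted by Benjamini-Hochberg across the table, and differences are sex-reversed minus normal. The fit and the permutation test were tested on simulated data. The 10 genes and all gene lists were chosen with earlier results of these data known. Named in each list were the 3 brightest probe sets and the 3 with the largest difference, except that the germ cell, Sertoli, steroidogenic, erythroid, kidney and striated muscle lists are given mostly as counts and sums. Alternatives were other scalings, filters, variance models, the replicate number as a block and each array left out. The number of arrays limits the precision. No scan batch is given, so none was tested.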

Additional observations from a re-analysis of the deposited data

How the results depend on the processing

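Scaling changed the differences of the 10 genes by at most 0.03, with no change of sign, and their median lay between 0.52 and 0.53 over median centring, a further quantile normalization and cyclic loess. Single arrays mattered more: 8 of the 10 genes moved by over 1.5 times with some array left out, and 3 changed sign, smtn.L to -0.091 and smtn.S to -0.087 without sex-reversed replicate 3, and tagln.S to 0.16, 0.06 and 0.09 without normal replicate 2, sex-reversed replicate 1 and sex-reversed replicate 3. With 1 array left out, smtn.L ran from -0.091 to 0.46, smtn.S from -0.087 to 0.59 and tagln.S from -0.26 to 0.16. The median lay between 0.23 and 0.65 and the number with a higher mean between 8 and 10. Taken as 7 genes with copies averaged, an alternative added after seeing the data, the median was 0.55 with 7 higher. Probe sets called in limma numbered 2 after median centring, 1 after a further quantile normalization and 1 above the median level, and 0 to 6 with 1 array left out (6 without sex-reversed replicate 3); none of the calls was one of the 10 genes, and the cause was not tested. The replicate numbers did not pair the arrays, with r of deviations of -0.01, -0.02 and 0.14 for equal numbers, and the replicate block gave 0 calls and a median of 0.53. For copies, r with 1 array left out ran from -0.25 to 0.80 for myl9, from -0.50 to 0.82 for tagln and from -0.88 to 0.31 for smtn, and Spearman gave 0.086 for smtn. Of the 6 nearest genes, 2 stayed with standardised profiles for either measure, and 1 to 2 (values) or 0 to 2 (deviations) with 1 array left out. Signal over background was not measured, which limits smtn.S and cnn1.S.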
